A study of Mus musculus with 4 samples.

Results

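The matrix metalloproteinases (MMPs), the ADAMTS proteases and the tissue inhibitors of metalloproteinases (TIMPs) were followed as 1 group of genes in sections of the injured mouse Achilles tendon. Members were all genes whose symbol is Mmp followed by a number (with or without a or b), Adamts followed by a number, or Timp1 to Timp4, which gave 45 of the 32285 genes in the files: 22 Mmp, 19 Adamts and 4 Timp genes. Of these, 38 had at least 50 unique molecular identifiers (UMIs, the count of captured RNA molecules) summed over the 4 sections and are called expressed here: 15 Mmp, all 19 Adamts and all 4 Timp genes. The 7 others were Mmp8 with 47 UMIs, Mmp28 with 45, Mmp24 with 37, Mmp20 with 2, and Mmp1b, Mmp7 and Mmp21 with 0, which allows up to 3 UMIs over the 4 sections. Just inside the limit lay Mmp10 with 94 UMIs and Adamts13 with 98, so the 50-UMI limit fell in a gap between members.

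Expression was measured with Visium arrays, on which each spot captures RNA from a small area that can hold several cells. The WT group had TrkA WT mice labelled Control, and the F592A group had mice with the TrkA F592A allele labelled 1NMPP1. TrkA is the receptor for nerve growth factor, and the F592A form is known to be blocked by the compound 1NMPP1. All mice were 12 weeks old, of both sexes per the labels, had a 0.5 mm punch made in the Achilles tendon about 2 mm from the heel bone, and were sampled 14 days later. Each group had 2 sections of 10 µm. The design text gives 4 pooled mice per genotype and ties no section to an animal, so p-values measure the spread between sections, which may be technical. Whether WT mice received the compound is not given in the sources used here, and genotype and compound cannot be told apart.

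The sections held 2027 to 3047 spots under tissue and 30154873 to 43957617 UMIs. WT 2 stood apart: it had 4207 UMIs of Xist against 7 to 12 in the other sections, and 23 UMIs of Y-linked genes against 7522 to 7918. Read by these genes, WT 2 was female and the other sections were male. Sex was thus not balanced between the groups, and its part in the differences was not tested. Regions found by clustering spots, without the members, were grouped into tissue classes by their leading marker genes. Connective tissue made up 55.9% of the spots of WT 2 and 4.11%, 11.8% and 6.95% of those of WT 1, F592A 1 and F592A 2. It joined a fibroblast-led region present in every section (118, 283, 330 and 191 spots in WT 1, WT 2, F592A 1 and F592A 2) with a tendon-led region, with Xist, Kera, Matn4, Cilp2 and Chad among its leading genes, that held 848 spots in WT 2 and 0 to 7 in the others. All 24 genes of the tendon marker list were detected in every section. A nerve-led region had at least 50 spots in WT 1 alone (573). The sections share 727 spot barcodes, which mark array positions (4992 per section) and not shared cells.

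MMPs are zinc-dependent enzymes that cut collagens and other matrix proteins, are made as inactive precursors and are held in check by TIMPs. The ADAMTS enzymes trim procollagens, cut the large proteoglycans that cushion collagen fibres, or shape fibrillin-rich microfibrils. In tendon these families are known for the turnover of type I collagen and for removal of provisional matrix after injury.

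Of the members, 9 form a cluster of Mmp genes on chromosome 9 (9:7272514-7699585 in GRCm38.p6, 427 kb). In genome order these are Mmp13, Mmp12, Mmp1b, Mmp3, Mmp10, Mmp8, Mmp27, Mmp20 and Mmp7, and 5 of them were expressed: Mmp13 with 31961 UMIs, Mmp3 with 9600, Mmp12 with 2580, Mmp27 with 172 and Mmp10 with 94. AP-1 is a transcription factor of Fos and Jun proteins known to act on several of these genes. The promoters below are shown because these 4 genes carry the AP-1 letters TGACTCA, on either strand, just before their start. Each line gives the 150 bases before the annotated start, on the plus strand, from RefSeq (GRCm38.p6), with the AP-1 letters in capitals; for Mmp12 the start is a later one of its annotated starts.
Mmp13 (chr9:7272364-7272513): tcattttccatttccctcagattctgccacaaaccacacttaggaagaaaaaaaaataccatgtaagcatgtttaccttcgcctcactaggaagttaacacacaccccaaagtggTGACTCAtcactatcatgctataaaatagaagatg
Mmp12 (chr9:7347224-7347373): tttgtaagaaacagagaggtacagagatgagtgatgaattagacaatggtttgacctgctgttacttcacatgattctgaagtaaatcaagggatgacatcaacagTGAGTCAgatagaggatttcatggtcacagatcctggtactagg
Mmp3 (chr9:7445672-7445821): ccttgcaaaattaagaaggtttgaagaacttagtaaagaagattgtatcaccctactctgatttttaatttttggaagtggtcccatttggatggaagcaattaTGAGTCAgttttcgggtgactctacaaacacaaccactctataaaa
Mmp10 (chr9:7502192-7502341): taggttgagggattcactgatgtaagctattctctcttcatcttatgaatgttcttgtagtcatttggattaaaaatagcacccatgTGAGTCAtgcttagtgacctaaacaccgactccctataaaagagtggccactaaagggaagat

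The first base of the AP-1 letters lay 35 bases before the start in Mmp13, 44 in Mmp12, 46 in Mmp3 and 63 in Mmp10. In the RefSeq table of promoters (250 bases before to 50 after each start), 31 of the 45 members were matched. Of the cluster's 9 genes, 6 held TGACTCA, the others being Mmp1b and Mmp7, and 0 of the 22 other matched members did. Counted by promoter, 6 of 11 in the cluster and 0 of 23 of the other matched members held it, against 5.2% of all 32851 promoters of that length. Unmatched members, among them Mmp2, Mmp9, Mmp19, Adamts4 and Adamts5, could not be read. The letters TATAAA, also read on both strands and not overlapping the AP-1 letters, were in 8 of the 9 cluster genes and in 2 of the 22 other matched members. By promoter that was 8 of 11 and 2 of 23, against 13.6% of all promoters. A match is a description of the letters, not a measured binding site. Genes with the AP-1 letters ran from 0 UMIs (Mmp1b, Mmp7) to 31961 UMIs (Mmp13) in these sections.

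**Figure D1:**
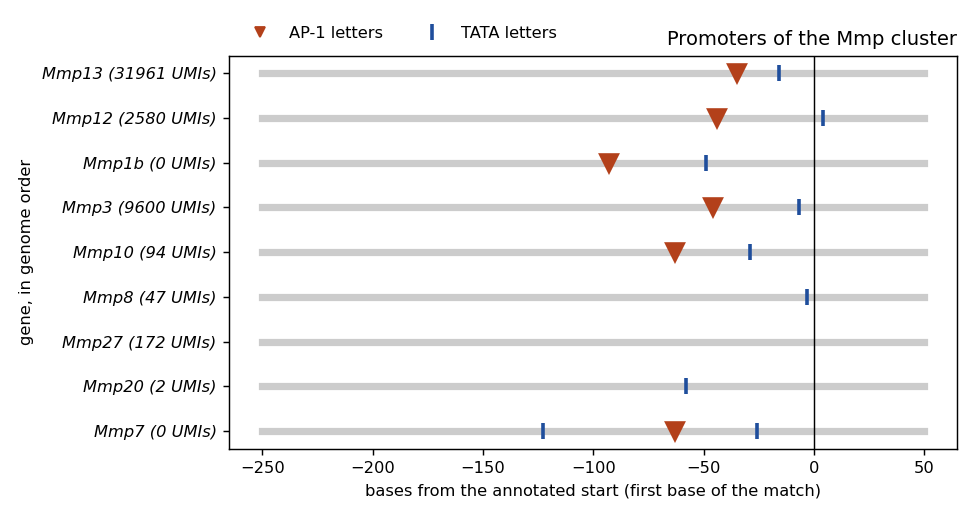
Positions of the AP-1 letters (triangles) and TATA letters (bars) in the promoters of the 9 Mmp cluster genes, in bases from the annotated start, with each gene's UMIs summed over the 4 sections. 6 genes carry the AP-1 letters, between 93 and 35 bases before the start, and 3 (Mmp8, Mmp27, Mmp20) do not.

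Across tissues, most members were highest in connective tissue. Levels here are CPM, a gene's UMIs scaled to all UMIs of that tissue in that section, as mean ± SD over 4 sections, for the 4 classes that every section held with at least 50 spots. The highest mean lay in connective tissue for 20 of the 38 expressed members (9 Mmp, 9 Adamts and 2 Timp), in skin epithelium for 10 (3 Mmp and 7 Adamts), in adipose tissue for 8 and in muscle for 0. In 6 members (4 with connective tissue and 2 with skin) the sections of the highest class all lay above those of the next class. These orders are descriptions with no test, and a count of UMIs in a spot cannot tell fewer cells from less RNA per cell. For 14 members the nerve-led region of WT 1, a single section, lay above the 4-section means of all other classes. Within WT 1 itself, nerve was not the highest class for all of these, as for Mmp13, Mmp9 and Adamts5.

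Among the gelatinases, Mmp2, which cuts denatured and basement membrane collagen, was at 2591 ± 252 CPM in connective tissue, 1594 ± 507 CPM in adipose tissue, 1270.3 ± 906 CPM in muscle and 803 ± 45.7 CPM in skin epithelium. It was highest in connective tissue in 4 of 4 sections, and the ranges of connective and adipose tissue did not overlap. Mmp9, the gelatinase of inflammatory cells, was at 11.9 ± 11.6 CPM in connective tissue and 8.75 ± 2.77 CPM in skin epithelium, a difference within the spread. The membrane protease Mmp14, which activates the Mmp2 precursor together with Timp2, had a different order from Mmp2. It was at 1107 ± 321 CPM in adipose tissue, 1049 ± 135 CPM in skin epithelium, 648 ± 425 CPM in connective tissue and 417 ± 358 CPM in muscle. Within connective tissue Mmp14 was at 484 CPM in the fibroblast-led region, pooled over the 4 sections, whose spots held a median of 45450 UMIs. In the tendon-led region, almost all of it from WT 2, it was at 1945 CPM, with a median of 4873 UMIs. The fibroblast-led region of WT 2 alone was at 827 CPM after scaling for composition (TMM), so the pooled gap also holds differences between sections.

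The collagenase Mmp13 was at 291 ± 208 CPM in connective tissue and 120.1 ± 161 CPM in muscle, and the spread between sections exceeded the difference. The stromelysin Mmp3 was at 92.9 ± 57.3 CPM in adipose tissue and 21.5 ± 6.82 CPM in muscle, and connective tissue lay above muscle in 4 of 4 sections. Mmp12, the elastase of macrophages, was at 16.1 ± 10.8 CPM in connective tissue and 2.71 ± 1.34 CPM in muscle, again with connective tissue higher in every section. Mmp23, a membrane-anchored protease that is shed, was at 229.8 ± 28.6 CPM in connective tissue and 148 ± 33.9 CPM in adipose tissue, with ranges apart. Mmp15, a membrane protease, was the only Mmp above muscle in connective tissue in 0 of 4 sections (7.63 ± 1.83 CPM against 15 ± 1.78 CPM).

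Of the procollagen N-proteinases, Adamts2 was at 369.9 ± 11.7 CPM in connective tissue and 161 ± 76.1 CPM in muscle, whereas Adamts14 was highest in skin epithelium (24.1 ± 9.68 CPM) in 4 of 4 sections. Among the proteoglycan-cutting members, Adamts4 was at 13.7 ± 1.9 CPM in connective tissue against 7.56 ± 3.28 CPM in adipose tissue, with ranges apart. Adamts5 ran from 82.8 ± 10.6 CPM in muscle to 132 ± 34 CPM in adipose tissue. Adamts20, which also cuts versican, and Adamts18 were set in skin epithelium. Adamts20 was at 23.1 ± 20.1 CPM there against 2.86 ± 2.28 CPM in adipose tissue, and Adamts18 at 4.79 ± 1.83 CPM against 1.28 ± 1.5 CPM, with ranges apart for both. By region, Adamts20 was highest, at 25.1 CPM, in the 1150 spots led by Krt35, Fa2h and Lgals7.

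The inhibitors differed by tissue. Timp2 was at 2041 ± 478 CPM in connective tissue and 1161 ± 314 CPM in adipose tissue, with ranges apart, and Timp1 at 755 ± 219 CPM and 509 ± 76.3 CPM. Timp3, which binds to the matrix, ran from 245 ± 43.2 CPM in muscle to 358 ± 11.5 CPM in adipose tissue. Timp4 differed from the other inhibitors in that connective tissue was its lowest class: 11 ± 4.62 CPM in muscle against 0.926 ± 0.411 CPM in connective tissue, which lay above muscle in 0 of 4 sections. Its highest mean was in adipose tissue, at 16.3 ± 21 CPM, which was its highest class in 1 of 4 sections. Timp4 reached 207 CPM in a region of 65 spots led by the smooth muscle genes Myh11, Cnn1 and Acta2.

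**Figure D2:**
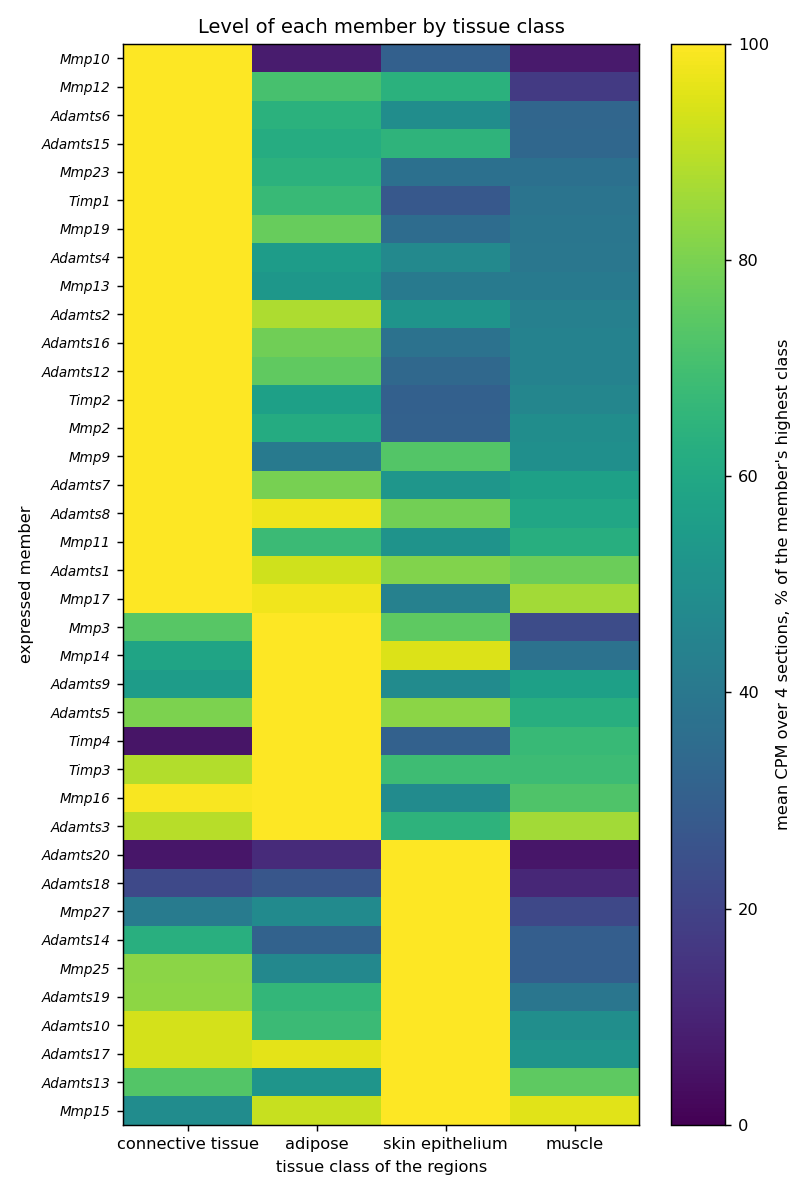
Mean CPM over the 4 sections of each of the 38 expressed members in 4 tissue classes, as a percent of the member's highest class, in rows grouped by that class. 20 members are highest in connective tissue, 8 in adipose tissue, 10 in skin epithelium and 0 in muscle.

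The spread of members over a section was described by the share of their UMIs in the richest spots. The 1% of a section's spots with the most UMIs of Mmp12 held 51.1% to 73.1% of its UMIs, and the same share was 34.9% to 64.8% for Mmp9, 29.1% to 66.5% for Mmp13 and 25.2% to 36.8% for Mmp3. For Timp4 it was 32.4% to 45.7%, and for Mmp14 6.43% to 11.7%. Of all UMIs of a section, the top Mmp12 spots held 3.23% to 5.52%, the top Mmp13 spots 3.98% to 10.1% and the top Mmp14 spots 3.79% to 5.95%. A member's share also rises where it has few UMIs. Mmp9 in F592A 2 had 169 UMIs over 137 spots and at most 5 in a spot. Timp4 had 119 to 254 UMIs in a section, against 24212 to 36346 for Mmp14. Since these spots were chosen by the member's own count, the shares carry no test and are not compared between genes of different depth. In F592A 1 a single spot held 375 of 918 Mmp12 UMIs and another spot 1415 of 12204 Mmp13 UMIs.

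Markers of other cells were read in the same spots, as the ratio of a list's CPM in the top spots to that in the section's other spots. In the top Mmp12 spots the macrophage list was 1.66 to 3.92 times and the neutrophil list 2.2 to 4.05 times its level in the other spots, in 4 of 4 sections. In the top Mmp3 spots the macrophage list was at 1.84 to 2.59 times, and in the top Mmp13 spots the cartilage and bone list was at 1.5 to 2.99 times. These pairings were not particular to the genes named. The cartilage and bone list was also at 1.19 to 2.99 times in the top Timp2 spots, and the macrophage list at 1.38 to 1.87 times in the top Mmp9 spots. In the top Mmp13 spots the osteoclast list was at 1.35 to 1.81 times. Of the neutrophil list, Elane, Ngp, Ltf and Ly6g were at 0 in at least 1 whole section. The muscle list was at or below 0.398 times in the top spots of these 3 genes. The part of these cells in the members' levels was not tested.

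**Figure D3:**
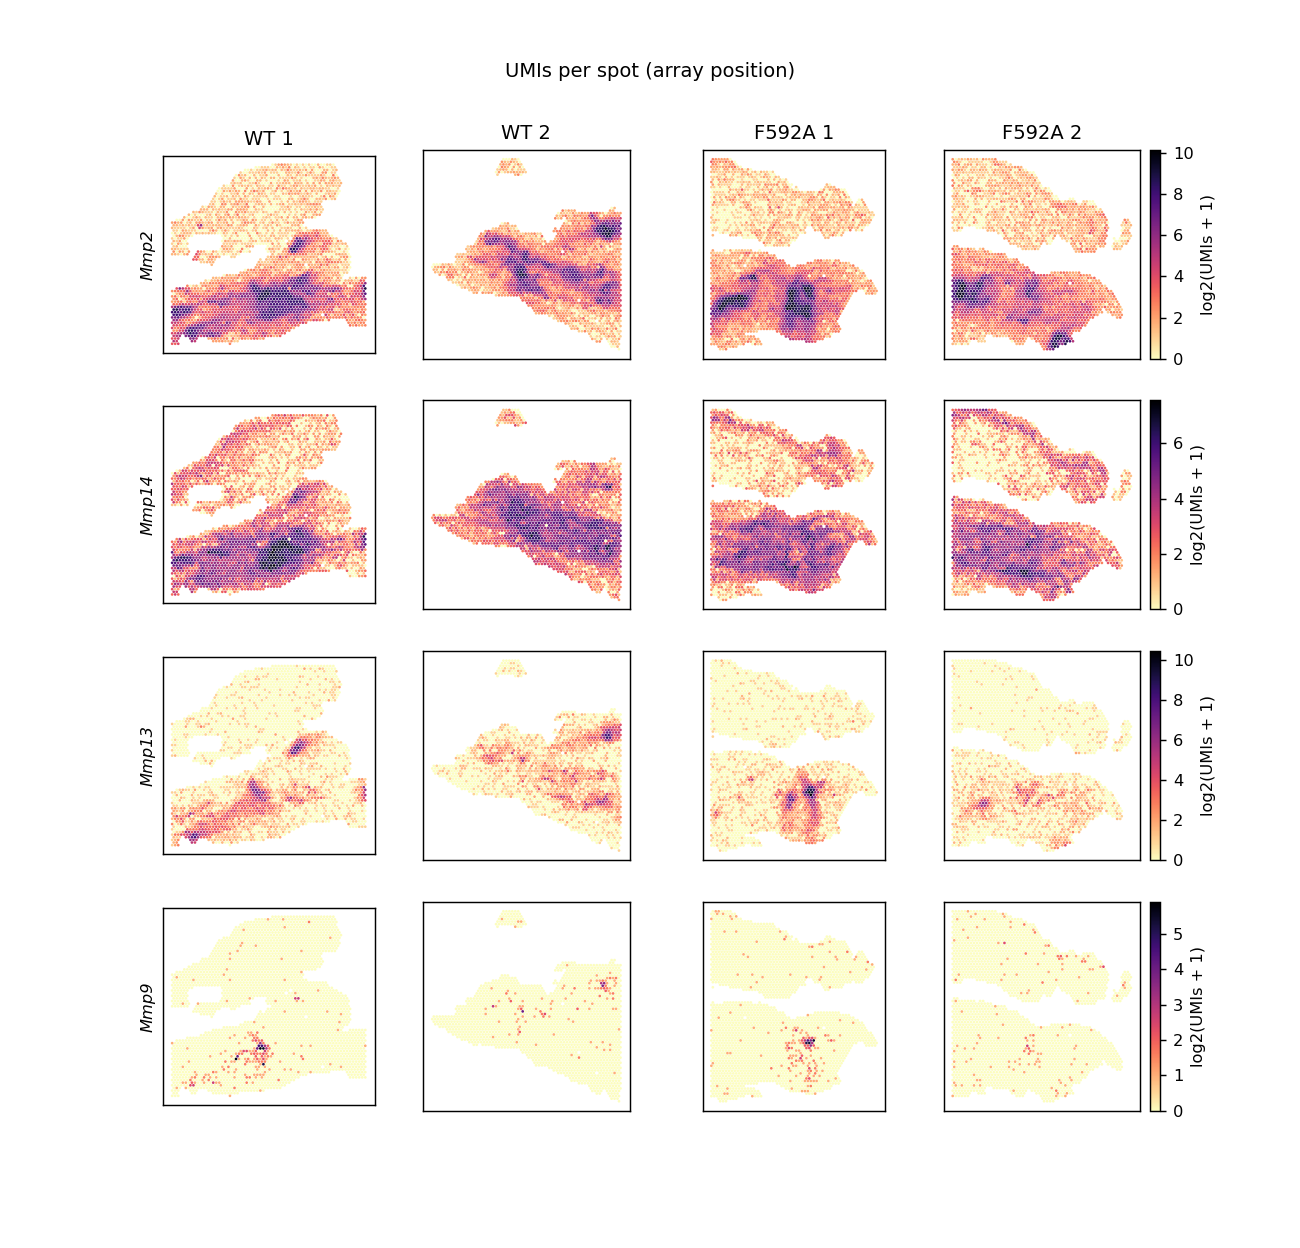
Spots of each section at their array position, coloured by log2(UMIs + 1) of Mmp2, Mmp14, Mmp13 and Mmp9 (rows), with 1 colour scale per gene. Mmp2 and Mmp14 cover wide areas of the tissue, while Mmp13 has foci, with up to 1415 UMIs in 1 spot of F592A 1, and Mmp9 is sparse, with at most 5 UMIs in a spot of F592A 2.

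In whole sections no member passed the test. Adamts1 was higher and Mmp14 lower in both F592A sections than in both WT sections, and the low-count genes Adamts13 and Mmp10 had 97 of 98 and 86 of 94 UMIs in F592A. Sums of UMIs per section were compared between groups with edgeR's quasi-likelihood test over 16347 genes. CPM values of genes from here on are scaled by TMM, a correction for composition, unless called plain, and those of summed marker lists are plain. None of the 41 members tested (all 38 expressed ones among them) had an adjusted p under 0.05, while 0.0795% of all genes did (0.0489% as lower). At an unadjusted p under 0.05 there were 11 members (6 higher and 5 lower in F592A), against 11.8% of all genes. DESeq2 called 4, Adamts1 and Adamts13 higher and Mmp14 and Mmp16 lower, with 1.86% of its 22736 genes. Without WT 1 and without WT 2, edgeR called 3 members each, with 2.1% and 2.31% of genes, and without F592A 1 or F592A 2 it called 0. The median log2 fold change of the members was -0.046, and that of all genes tested was -0.00034. In 19 of the 41 members the groups did not overlap, near the 44.2% of all genes.

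Adamts1, a versican-cutting protease, was at 44.4 and 46.1 CPM in WT 1 and WT 2 and 75.7 and 72.2 CPM in F592A 1 and F592A 2, so that both F592A sections lay above both WT sections (log2 fold change 0.71 ± 0.091 (SE), adjusted p = 0.127). Adamts14 was at 9.99 and 11.7 CPM in WT 1 and WT 2 and 16.9 and 14.3 CPM in F592A 1 and F592A 2, also without overlap (log2 fold change 0.52 ± 0.15 (SE), adjusted p = 0.301). Adamts17, linked to microfibrils, was at 5.58 and 4.86 CPM in WT 1 and WT 2 and 3.62 and 3.9 CPM in F592A 1 and F592A 2, lower in F592A without overlap (log2 fold change -0.48 ± 0.19 (SE), adjusted p = 0.423). Adamts13, which cuts von Willebrand factor, had 1 and 0 UMIs in WT 1 and WT 2 and 62 and 35 in F592A 1 and F592A 2. Per UMI sequenced that was 87.4 times the WT level (adjusted p = 0.118 by edgeR). The 95% exact counting interval, 15.3 to 3489, holds counting error only and leaves out the spread between sections. Adamts13 reached the limit for expressed members through its F592A UMIs. It was also picked by its p in these sections, so the interval adds no support for a group difference. The strains of the mice are not given in the sources used here, so a strain difference in Adamts13 cannot be told apart from one of genotype or compound. In muscle, skin and adipose tissue both WT sections held 0 UMIs of Adamts13, and the F592A sections held 4 to 10.

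Adamts4 was at 11.8 and 10.4 CPM in WT 1 and WT 2 and 12.2 and 9.33 CPM in F592A 1 and F592A 2 and overlapped between groups (log2 fold change -0.046 ± 0.18 (SE), adjusted p = 0.945). Adamts5 was at 103 and 126 CPM in WT 1 and WT 2 and 110.3 and 96.6 CPM in F592A 1 and F592A 2 and overlapped too (log2 fold change -0.14 ± 0.14 (SE), adjusted p = 0.745). These are the main aggrecanases.

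Mmp14 was at 835 and 1040.5 CPM in WT 1 and WT 2 and 611 and 634 CPM in F592A 1 and F592A 2, lower in both F592A sections (log2 fold change -0.59 ± 0.16 (SE), adjusted p = 0.282). Mmp16, a membrane protease of the same branch, was at 10.8 and 17.5 CPM in WT 1 and WT 2 and 7.28 and 5.01 CPM in F592A 1 and F592A 2 (log2 fold change -1.20 ± 0.29 (SE), adjusted p = 0.249). Mmp25, a membrane protease of leukocytes, was at 1.54 and 1.78 CPM in WT 1 and WT 2 and 0.921 and 0.891 CPM in F592A 1 and F592A 2 (log2 fold change -0.87 ± 0.28 (SE), adjusted p = 0.345). All 3 had groups that did not overlap. Mmp10, a stromelysin, had 3, 5, 70 and 16 UMIs in WT 1, WT 2, F592A 1 and F592A 2. Per UMI sequenced, F592A was at 9.69 times the WT level (95% exact counting interval 4.70 to 23.2, adjusted p = 0.285 by edgeR). Of the 94 UMIs of Mmp10, 70 came from F592A 1. Mmp10 too reached the limit for expressed members through F592A and was picked by its p. Its interval, of counting error only, thus adds no support either.

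Mmp3 was at 56.7 and 48 CPM in WT 1 and WT 2 and 76.6 and 62.9 CPM in F592A 1 and F592A 2, higher in F592A without overlap (log2 fold change 0.41 ± 0.14 (SE), adjusted p = 0.365). Mmp12 was at 15.9 and 11.3 CPM in WT 1 and WT 2 and 21.1 and 16.8 CPM in F592A 1 and F592A 2 (log2 fold change 0.48 ± 0.20 (SE), adjusted p = 0.446). With the richest spot of each section left out, plain CPM of Mmp12 was 11.9 and 9.81 in WT and 12.4 and 15.1 in F592A, so the order of the groups stayed but the gap between WT 1 and F592A 1 nearly closed. Mmp2 was at 1957 and 2150.3 CPM in WT 1 and WT 2 and 2168 and 1607 CPM in F592A 1 and F592A 2 and overlapped (log2 fold change -0.12 ± 0.21 (SE), adjusted p = 0.861). Mmp9 was at 13 and 6.2 CPM in WT 1 and WT 2 and 9.4 and 4.43 CPM in F592A 1 and F592A 2 (log2 fold change -0.48 ± 0.46 (SE), adjusted p = 0.745). Mmp13 was at 233 and 239 CPM in WT 1 and WT 2 and 281 and 68.7 CPM in F592A 1 and F592A 2 (log2 fold change -0.43 ± 0.59 (SE), adjusted p = 0.822). Both varied more within groups than between them, and F592A 2 was the lowest section for both.

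Of the inhibitors, Timp2 was at 1583 and 1822 CPM in WT 1 and WT 2 and 1431 and 1108 CPM in F592A 1 and F592A 2, lower in F592A without overlap (log2 fold change -0.42 ± 0.19 (SE), adjusted p = 0.472). Timp3 was at 297 and 334 CPM in WT 1 and WT 2 and 277 and 273 CPM in F592A 1 and F592A 2, also lower without overlap (log2 fold change -0.20 ± 0.12 (SE), adjusted p = 0.582). Timp1 was at 527 and 541 CPM in WT 1 and WT 2 and 581 and 486 CPM in F592A 1 and F592A 2 (log2 fold change -0.00092 ± 0.14 (SE), adjusted p = 0.998), and Timp4 at 5.7 and 4.07 CPM in WT 1 and WT 2 and 5.85 and 4.69 CPM in F592A 1 and F592A 2 (log2 fold change 0.10 ± 0.24 (SE), adjusted p = 0.906), and both overlapped. Summed over genes in whole sections, there were 0.713, 0.712, 0.665 and 0.712 Timp UMIs per Mmp UMI in WT 1, WT 2, F592A 1 and F592A 2, so F592A 2 lay at the WT level. By tissue, in the same order of sections, the ratio was 0.592, 0.796, 0.9 and 1.14 in muscle. It was 0.599, 0.501, 0.401 and 0.46 in skin epithelium, and 0.953, 0.69, 0.679 and 0.806 in connective tissue. The groups thus lay apart in opposite directions in muscle and skin and overlapped in connective tissue. These ratios were not tested.

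**Figure D4:**
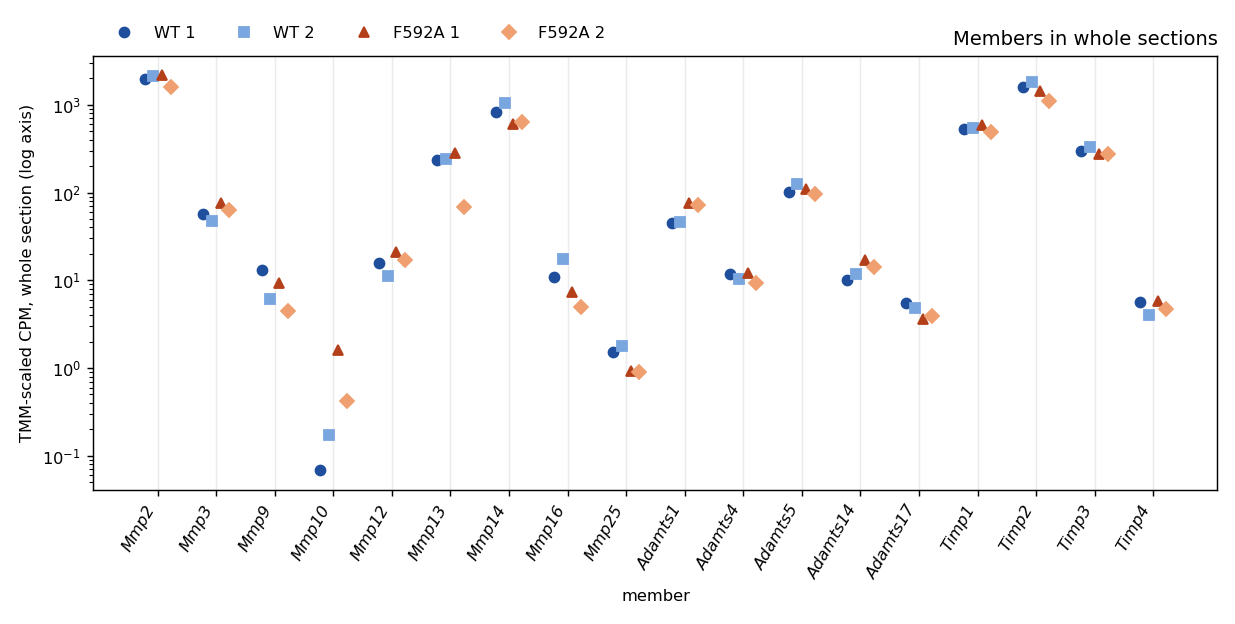
TMM-scaled CPM (log axis) in each whole section of 18 members, WT in blue and F592A in orange. Adamts1 is higher in both F592A sections (75.7 and 72.2 against 44.4 and 46.1) and Mmp14 lower (611 and 634 against 835 and 1040.5), while Mmp2 and Timp1 overlap.

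In connective-tissue-led regions the members again had no call, and Mmp14 was lower and Adamts1 higher in both F592A sections. Of 14365 genes tested, 0.0209% were called, and 0 of 38 members by edgeR; 11 members had an unadjusted p under 0.05 (12.7% of all genes did) and DESeq2 called 3 (Adamts1, Mmp14 and Mmp19) with 1.23% of genes. In 16 of the 38 members the groups did not overlap, against 45.5% of all genes. Mmp14 was at 655 and 1246 CPM in WT 1 and WT 2 and 354 and 340.4 CPM in F592A 1 and F592A 2 (log2 fold change -1.45 ± 0.30 (SE), adjusted p = 0.197). WT 2 was highest, and without its tendon-led region, in the fibroblast-led region alone, Mmp14 was at 650.4 and 827 CPM in WT and 351 and 339 CPM in F592A (log2 fold change -1.10 ± 0.15, adjusted p = 0.0964 by edgeR). In that region 0 of 38 members and 0.0575% of genes were called. Over all connective tissue, 5 members (7.6% of genes) were called without WT 1, 2 (1.06% of genes) without WT 2, and 0 without F592A 1 or F592A 2. Adamts1 was at 53.7 and 42 CPM in WT 1 and WT 2 and 82.4 and 78.7 CPM in F592A 1 and F592A 2 (log2 fold change 0.76 ± 0.15 (SE), adjusted p = 0.187), and in the fibroblast-led region alone at 53.4, 43.4, 82.3 and 78.3 CPM. Adamts13 had 1 and 0 UMIs in WT and 34 and 13 in F592A (adjusted p = 0.197).

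Mmp2 was at 2860.5 and 2257 CPM in WT 1 and WT 2 and 2776 and 2489 CPM in F592A 1 and F592A 2 in connective tissue and overlapped between groups. The 4 Timp genes all had negative log2 fold changes there, from -0.74 to -0.17, none of them called. The summed tendon marker list stood at 129484 and 129372 CPM in the WT and 90810 and 104603 CPM in the F592A sections, with 17 of its 24 genes below both WT sections in both F592A sections. Of all genes tested there, 22.7% were lower in F592A without overlap, by TMM-scaled and not plain CPM. The summed macrophage list was at 4148 and 4563 CPM in WT and 4973 and 4910 CPM in F592A, and the mast cell list at 172 and 98.0 CPM against 11.9 and 69.0 CPM. The part of these cells in the differences of Mmp14 and Adamts1 was not tested.

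In muscle-led regions 17 of the 32 members tested were called: 15 fell and 2, Timp4 and Adamts1, rose in F592A. The same test called 25.5% of the 13427 genes, and 10.6% as lower. The groups did not overlap in 24 of the 32 members and in 70.5% of all genes. The median log2 fold change of the members was -0.96, and that of all genes was -0.015. A region led by embryonic myosin genes (Myh3, Myl4, Myh8), which are known from regenerating fibres, held 438 and 171 spots in WT and 31 and 5 in F592A. Without it, 0 of 28 members and 0 of 12674 genes (0.0%) were called by edgeR. There, 10 of the 28 members and 907 of the 12674 genes had an unadjusted p under 0.05. The 17 members kept the sign of their log2 fold change, with adjusted p from 0.63 to 0.634, and the median over the members tested was -0.89. Since 971, 363, 727 and 674 of the muscle spots of WT 1, WT 2, F592A 1 and F592A 2 remained, the kept sign is no separate check. The value of Adamts4 was -2.16 ± 0.47 there and that of Mmp13 -3.48 ± 0.87, while Mmp14 went from -1.87 ± 0.33 to -0.95 ± 0.31. With 1 section left out, 10 members (13.5% of genes) were called without WT 1, 13 (14.5%) without WT 2, 14 (22.1%) without F592A 1 and 5 (5.81%) without F592A 2.

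Connective tissue markers moved with this result. The summed fibroblast list was at 54769 and 47645 CPM in the WT and 21008 and 11713 CPM in the F592A sections of muscle, with 27 of 34 genes lower in both F592A sections, and the tendon list was at 68650 and 92038 against 30872 and 15630 CPM. By TMM-scaled and not plain CPM, 35.5% of all genes tested in muscle were lower in F592A without overlap. The muscle list was at 60721 and 63206 against 146702 and 156184 CPM. The adipose list was at 383 and 309 against 770 and 1046 CPM, and the skin epithelium list at 955 and 572 against 1906 and 4776 CPM. Without the embryonic region the fibroblast list was at 18369 and 50262 CPM in WT and 18721 and 11367 CPM in F592A, so that WT 1 and F592A 1 were alike. The part of these tissues in the members' differences was not tested.

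Among MMPs in muscle, Mmp2 was at 1915 and 1729.7 CPM in WT 1 and WT 2 and 819.5 and 311 CPM in F592A 1 and F592A 2 (log2 fold change -1.69 ± 0.43 (SE), adjusted p = 0.036). Without the embryonic region it was at 572 and 1962 CPM in WT and 609 and 274 CPM in F592A, and the groups overlapped. Mmp14 was at 804 and 420.2 CPM in WT 1 and WT 2 and 188 and 147 CPM in F592A 1 and F592A 2 (log2 fold change -1.87 ± 0.33 (SE), adjusted p = 0.0148), and without that region at 316 and 266 against 168 and 132 CPM, still without overlap. Mmp23 was at 124 and 127 CPM in WT 1 and WT 2 and 42.6 and 24.7 CPM in F592A 1 and F592A 2 (log2 fold change -1.89 ± 0.26 (SE), adjusted p = 0.00928). Mmp13 was at 65.6 and 324 CPM in WT 1 and WT 2 and 37.8 and 16.3 CPM in F592A 1 and F592A 2, with WT 2 well above the rest (log2 fold change -2.83 ± 0.78 (SE), adjusted p = 0.0438), and without WT 2 its value was -1.27 (adjusted p = 0.0656). The membrane protease Mmp16 was at 12 and 10.7 CPM in WT 1 and WT 2 and 3.89 and 1.17 CPM in F592A 1 and F592A 2 (log2 fold change -2.11 ± 0.44 (SE), adjusted p = 0.0219). Mmp11, a stromelysin found in remodelling stroma, was at 39 and 19.8 CPM in the WT and 10.7 and 5.6 CPM in the F592A sections (log2 fold change -1.83 ± 0.43 (SE), adjusted p = 0.0279). Mmp19 was at 28.6 and 31.4 CPM in the WT and 19.5 and 11.2 CPM in the F592A sections (log2 fold change -0.95 ± 0.26 (SE), adjusted p = 0.042). In each of these 7 genes both F592A sections lay below both WT sections. They were chosen by their call in the same sections, so this order adds no support. Of all genes tested in muscle, 35.5% were lower in F592A without overlap.

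Of the ADAMTS genes in muscle, Adamts16 had the log2 fold change farthest from 0 of the 17 called members, at 17.1 and 14.4 CPM in WT 1 and WT 2 and 2.22 and 1.17 CPM in F592A 1 and F592A 2 (log2 fold change -3.17 ± 0.33 (SE), adjusted p = 0.00815), on 12 and 5 UMIs in F592A. The aggrecanase Adamts4 was at 10.0 and 6.62 CPM in WT 1 and WT 2 and 1.85 and 1.63 CPM in F592A 1 and F592A 2 (log2 fold change -2.25 ± 0.38 (SE), adjusted p = 0.0129), on 10 and 7 UMIs in F592A, and Adamts15, a proteoglycanase, at 18.1 and 17 CPM in the WT and 6.86 and 7.46 CPM in the F592A sections (log2 fold change -1.30 ± 0.20 (SE), adjusted p = 0.0109). Adamts7 was at 15.6 and 8.99 CPM in the WT and 6.11 and 3.96 CPM in the F592A sections and Adamts12 at 30.5 and 25 CPM in the WT and 15 and 7.93 CPM in the F592A sections; both are known to cut the tendon protein COMP (adjusted p = 0.0498 and 0.0286). Adamts6 was at 5.87 and 11.9 CPM in the WT and 2.96 and 2.1 CPM in the F592A sections (log2 fold change -1.76 ± 0.47 (SE), adjusted p = 0.04), and Adamts17 at 4.3 and 3.16 CPM in the WT and 1.11 and 1.17 CPM in the F592A sections (log2 fold change -1.72 ± 0.43 (SE), adjusted p = 0.0335). Adamts1 was the one Adamts called higher, at 34.4 and 43.9 CPM in WT 1 and WT 2 and 66.3 and 59.5 CPM in F592A 1 and F592A 2 (log2 fold change 0.69 ± 0.17 (SE), adjusted p = 0.0349), and without the embryonic region it was at 39.4 and 45.4 against 58.3 and 54.4 CPM.

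Of the inhibitors in muscle, Timp2 fell, at 1298 and 1358 CPM in WT 1 and WT 2 and 554 and 315 CPM in F592A 1 and F592A 2 (log2 fold change -1.61 ± 0.28 (SE), adjusted p = 0.0146), and Timp4 rose, at 6.56 and 6.12 CPM in WT 1 and WT 2 and 15.2 and 18.2 CPM in F592A 1 and F592A 2 (log2 fold change 1.39 ± 0.21 (SE), adjusted p = 0.0109). Timp4 without the embryonic region was at 11.6 and 6.74 CPM in WT and 16.2 and 17.3 CPM in F592A. Timp1 was at 279 and 519.7 CPM in the WT and 231 and 73.5 CPM in the F592A sections and Timp3 at 214 and 278 CPM in the WT and 251 and 234 CPM in the F592A sections, and neither was called. Adamts5 was close to level in muscle, at 77.9 and 86.2 CPM in the WT and 83.8 and 82.1 CPM in the F592A sections (log2 fold change 0.016 ± 0.14).

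The group difference itself was compared between connective-tissue-led and muscle-led regions with an interaction term and the section as a block. It differed for 9 of 38 members, all with the more positive change in connective tissue, while 13% of 14632 genes were called (7.94% in the opposite direction). With RLE scaling 11 were called, these 9 and, in the opposite direction, Timp4 and Mmp15, beside 13% of all genes. Adamts4 had a log2 fold change of 0.11 ± 0.20 (SE) in connective tissue and -2.25 ± 0.38 in muscle, a difference of 2.35 ± 0.35 (adjusted p = 0.0153). Mmp19 had 0.77 ± 0.17 and -0.95 ± 0.26, so the sign differed between tissues (difference 1.80 ± 0.26, adjusted p = 0.0153). Mmp2, with 0.041 ± 0.20 and -1.69 ± 0.43, differed by 1.92 ± 0.47 (adjusted p = 0.0408). The other 6 were Adamts7, Adamts12, Adamts14, Adamts16, Mmp11 and Mmp23, with differences of 1.61 to 3.29. For Mmp14, lower in both tissues, no such difference was called (adjusted p = 0.624). The calls depended on both F592A sections. A fit without F592A 1 or F592A 2 leaves 1 section in that group, and it lost the calls of genes in general. The loss is thus not particular to the members. The muscle side of this test includes the embryonic-myosin-led region.

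**Figure D5:**
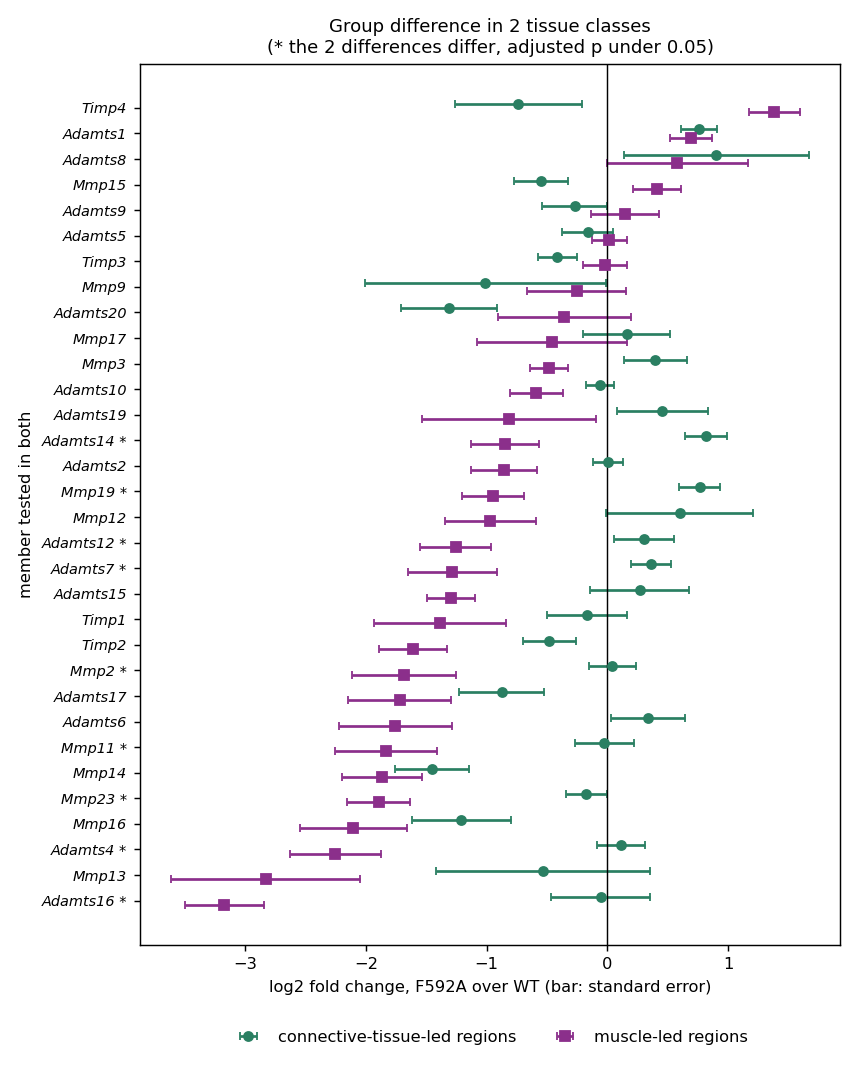
log2 fold change (F592A over WT) with its standard error for the 32 members tested in both connective-tissue-led (circles) and muscle-led (squares) regions, ordered by the muscle value. The 9 members with a star differ between the tissues by the interaction test, with changes between -0.18 and 0.82 in connective tissue and between -3.17 and -0.85 in muscle.

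In skin-epithelium-led regions 0 of 33 members and 0 of 13349 genes (0.0%) were called by edgeR, and DESeq2 called 0 members; 4 members had an unadjusted p under 0.05, against 6.91% of all genes. The groups did not overlap in 14 of the 33 members and in 36.1% of all genes. Mmp19 was at 13.4 and 17.8 CPM in WT 1 and WT 2 and 26 and 27.9 CPM in F592A 1 and F592A 2, higher in both F592A sections (log2 fold change 0.88 ± 0.26 (SE), adjusted p = 0.518). Mmp13 was at 233 and 97.7 CPM in WT 1 and WT 2 and 95.1 and 58.9 CPM in F592A 1 and F592A 2 (log2 fold change -1.15 ± 0.40 (SE), adjusted p = 0.622), and Adamts9, a proteoglycanase, at 14.4 and 10.1 CPM in WT 1 and WT 2 and 4.83 and 7.75 CPM in F592A 1 and F592A 2 (log2 fold change -1.02 ± 0.36 (SE), adjusted p = 0.638). Mmp14, lower in F592A in connective tissue and muscle, was not lower in skin, where the groups overlapped (log2 fold change 0.25 ± 0.24 (SE), adjusted p = 0.918 by edgeR). Skin sums of WT 2 rest on 208 spots and 751960 UMIs, the fewest of any section, and without WT 2 the test called 7 members and 8.08% of genes. Fits with 1 section left out leave 1 section in a group, and their calls changed for genes in general, not for the members alone.

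Across the 4 comparisons, 31 expressed members were tested in each. Adamts1 was the only one with both F592A sections above both WT sections in all 4, and Timp2 and Adamts17 were the only ones below in all 4. Of the 12538 genes tested in all 4, 1.56% were higher in each and 2.25% lower in each, so 1 and 2 of 31 members lie too near these shares to be read as particular to the members. Whole sections hold the spots of the other classes, so these are not 4 independent comparisons. In skin epithelium Adamts1 was at 38.4 and 53.3 CPM in the WT and 57.4 and 59.4 CPM in the F592A sections, and Timp2 at 838 and 628 CPM in the WT and 524 and 513 CPM in the F592A sections.

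Partner genes of the families were read from 6 lists, described by their counts. None of the genes tested in these lists was called in whole sections, connective tissue or skin. In whole sections the smallest p of the activators belonged to Plaur, the urokinase receptor (log2 fold change 0.59 ± 0.13). Of 19 substrates tested there, 14 had negative changes, with Bcan (brevican) at -0.92 ± 0.14 and the collagen-binding Fmod (fibromodulin) at -1.0 ± 0.24. In muscle 8 of 19 substrates fell and 0 rose, among them Fn1 (fibronectin, -2.14 ± 0.39), Col1a1 (type I collagen, -1.63 ± 0.34) and Acan (aggrecan, -2.04 ± 0.57), beside 10.6% of all genes called lower. There, 7 of 12 other matrix proteases fell, including the cathepsin gene Ctsk (-1.56 ± 0.33), and 1, Htra4, rose (0.98 ± 0.25). Of 8 membrane ADAM genes 3 fell, led by Adam12 (-2.06 ± 0.32), and of 11 ADAMTS-like and procollagen partner genes 4 fell, including Bmp1, the procollagen C-proteinase (-1.59 ± 0.35). Of 9 activators 1 rose, the urokinase gene Plau (0.91 ± 0.15), and 2 fell, Plat (-1.21 ± 0.28) and Furin (-0.60 ± 0.17). Of 8 other inhibitors and receptors Spock2 rose (0.99 ± 0.25) and Cd44 fell (-1.22 ± 0.25). These muscle calls share the regions and the limits of the members' calls: 0 genes were called without the embryonic-myosin-led region.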

How the data were processed

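Space Ranger 1.3.0 made the deposited matrices, per the file headers, and the submitters' processing notes name Space Ranger, Seurat 3 and the build mm10. Their values are UMI counts of a gene in a spot, deposited without normalization beside gene identifiers, barcodes and array positions. Members, lists and tests were chosen with earlier results of these data known. Spots with at least 500 UMIs were kept (3 or 4 left out per section). Regions came from scanpy 1.11.5 without the members (10000 counts per spot, log, 2000 variable genes, limit 10, 30 principal components, 20 neighbours, Leiden resolution 0.6, leidenalg 0.10.2, seed 0), and 14 were found. A region took the tissue of the marker list with the most genes, at least 3, among its 20 leading genes (fold after adding 20 CPM), a scoring rule set after the files were seen. Tendon, fibroblast and macrophage lists were pooled as connective tissue.

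UMIs were summed per section and tissue, with the section as the replicate, for classes with at least 50 spots in every section. Sums were tested with edgeR 4.0.16 (quasi-likelihood, TMM, filterByExpr, R 4.3.3) over all genes, with Benjamini-Hochberg adjustment and a threshold of 0.05. The SE is the absolute log2 fold change divided by the square root of F. DESeq2 1.42.0 was an alternative. The scripts were tested on simulated data. With 2 sections against 2, a two-sided exact permutation test cannot go below 0.3333 and was not used. Full values are given for members past the threshold, the 4 Mmp and 4 Adamts with the smallest p in whole sections, the 3 smallest in each tissue, and a fixed set of 13 (Mmp2, Mmp3, Mmp9, Mmp12, Mmp13, Mmp14, Adamts1, Adamts4, Adamts5 and the Timp genes). Promoters are RefSeq's (GRCm38.p6), and the files' strand setting is not given in the sources used here.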

Additional observations from a re-analysis of the deposited data

Results flagged for a closer look

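The test of the difference between tissues picked out 9 members whose change from WT to F592A was not the same in connective-tissue-led and muscle-led regions. Connective minus muscle, on the log2 scale with its SE, was 3.29 ± 0.56 for Adamts16, 2.35 ± 0.35 for Adamts4, 1.92 ± 0.47 for Mmp2, 1.80 ± 0.35 for Mmp23 and 1.80 ± 0.26 for Mmp19. It was 1.79 ± 0.43 for Mmp11, 1.68 ± 0.35 for Adamts14, 1.64 ± 0.28 for Adamts12 and 1.61 ± 0.33 for Adamts7. Adjusted p by edgeR ran from 0.0153 to 0.0408, with 2 sections per group. The calls depended on both F592A sections, and a fit without F592A 1 or F592A 2 lost those of genes in general, not of the members alone. Groups of 2 sections are too small for a check of outlying sections.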

How the results depend on the processing

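Over the 51 members and comparisons with full values, 505 values were recomputed under other settings: 385 kept direction and call, 77 lost the call, 28 gained one and 15 changed sign, all 15 among uncalled whole-section values. The number of members called moved as follows. In whole sections it was 4 with DESeq2, 4 with no filter on low counts and 0 to 3 with 1 section left out. In connective tissue it was 3 with DESeq2, 11 with no filter and 0 to 5 with 1 section left out. In muscle (17) it was 5 to 14 with 1 section left out, 8 at Leiden resolution 1.0 and 0 without the embryonic-myosin-led region, the last chosen after seeing the data. In skin it was 1 with no filter and 0 to 7 with 1 section left out. In the interaction (9) it was 11 with RLE scaling, 17 with no filter and 0 to 14 with 1 section left out. Of all genes, the called number went from 13 in whole sections to 423 with DESeq2, 546 with no filter and 5 with RLE scaling, from 3 in connective tissue to 255, 1214 and 3, from 0 in skin to 31, 306 and 0, and from 1907 in the interaction to 3075 with no filter. In muscle it went from 3428 to 928 at resolution 1.0. Sign changes in whole sections, with the range over 1 section left out, were Mmp2 (-0.35 to 0.081, and 0.074 without muscle-led spots), Mmp9 (-1.12 to 0.16), Mmp13 (-1.78 to 0.25), Adamts4 (-0.25 to 0.14, and 0.033 without muscle-led spots), Adamts5 (-0.28 to 0.017), Timp4 (-0.11 to 0.37) and Timp1 (-0.13 to 0.12). Timp1 was also at 0.0011 with RLE scaling, 0.0045 with DESeq2 and 0.0025 with no filter. The cause was not tested. Where 1 section was left alone in a group, it was assumed to vary like the others. With the replicate block, 0, 0, 17 and 0 members were called in whole sections, connective tissue, muscle and skin, beside 0.0428%, 0.473%, 25.3% and 0.0% of all genes. In muscle Mmp13 lost its call (adjusted p = 0.0538 by edgeR) and Adamts2 gained one. The shared numbers gave correlations of deviations of -0.14, 0.048, -0.019 and -0.070. With 1 difference per group, and WT 2 unlike WT 1 in its tissues, these values cannot tell whether same-numbered sections were paired. With the numbers crossed in whole sections, chosen after seeing the data, 189 genes and 3 members were called. Connective tissue at Leiden resolution 1.0 was not run, since sections held fewer than 50 of its spots. In the fibroblast-led region alone, added after seeing the data, 0 members were called. Depth limits Adamts3, Adamts13, Mmp10, Mmp25 and Mmp27, each with 94 to 193 UMIs in all.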
